A study of Mus musculus with 4 samples.

Results

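The genes described here form the mammalian circadian clock and its direct outputs, 28 genes chosen by name from textbook clock biology: 3 core activators, 9 repressors, 4 nuclear receptors, 4 output bZIP factors, 5 kinases and ubiquitin ligases, and 3 partner or output enzymes. Their members were taken as every probeset whose only annotated gene symbol is one of the 28, which gave 77 of the 45101 probesets on the Affymetrix Mouse Genome 430 2.0 array. A probeset is a group of short oligonucleotides that together report 1 transcript, and a gene may have several.

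Total RNA came from the hippocampus of male DBA/2J mice, an inbred strain, labelled as 8 to 10 weeks old. Control mice drank plain water (fluoxetine dose 0) and treated mice drank water with fluoxetine-HCl, a serotonin reuptake inhibitor used as an antidepressant, at a daily dose of 18 mg/kg for 21 days. Each group had 12 mice, whose hippocampal RNA went into 2 separate pools (6 mice to a pool) with 1 array for each, so n is 2 pools per group and 4 arrays in all, and differences between single mice cannot be seen. The mice were housed with 12 hours of light from hour 7 of the day and their behaviour was tested between hours 13 and 16. The hour at which the hippocampi were taken is not given in the sources used here, and dose was calculated from average water intake and body weight rather than measured. The comparison asks how chronic fluoxetine alters hippocampal transcripts, here those of the clock.

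In the clock, the activators ARNTL (BMAL1) and CLOCK, or its forebrain relative NPAS2, bind E-box sequences and switch on the Period and Cryptochrome genes, whose proteins then repress the same activators. A secondary loop sets REV-ERB repressors (Nr1d1, Nr1d2) against ROR activators at ROR elements, and a further layer sets the activators DBP, TEF and HLF against the repressor NFIL3 at D-box sequences. Most of these transcripts rise and fall over the day in the suprachiasmatic nucleus, the master clock of the hypothalamus, and in other tissues, the hippocampus included, so that the level of a clock transcript depends on the hour of sampling.

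The DNA elements named above were looked for in RefSeq promoter windows of the GRCm38.p6 reference, which is of the strain C57BL/6J and not DBA/2J. A window holds 300 bases, 250 before and 50 from a transcript start onward, and 24 of the 28 genes had at least 1, in 33 windows. Per2, Bhlhe40, Csnk1d and Btrc had none. The stretches below are shown because they hold matches to these elements, in members whose pools are described further on. Whether clock proteins act at these matches was not tested. Each is printed 5′ to 3′ on the gene's strand, with up to 30 bases on either side of the outermost match and the matches in capitals. CACGTG is the E-box, AACGTG is the related E′-box read on the opposite strand (CACGTT), and TTATGTAA is a D-box.
Ciart, chr3:95882237-95882374, minus strand: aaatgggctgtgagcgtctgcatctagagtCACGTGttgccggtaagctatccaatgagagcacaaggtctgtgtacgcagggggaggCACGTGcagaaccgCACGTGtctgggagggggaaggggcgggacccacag
Per1, chr11:69098753-69098818, plus strand: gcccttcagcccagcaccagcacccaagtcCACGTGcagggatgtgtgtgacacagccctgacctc
Tef, chr15:81811246-81811311, plus strand: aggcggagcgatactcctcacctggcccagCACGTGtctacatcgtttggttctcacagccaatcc
Per3, chr4:151044786-151044900, minus strand: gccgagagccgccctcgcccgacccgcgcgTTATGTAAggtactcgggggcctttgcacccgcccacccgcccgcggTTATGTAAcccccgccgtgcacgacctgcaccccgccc
Cry1, chr10:85185079-85185163, minus strand: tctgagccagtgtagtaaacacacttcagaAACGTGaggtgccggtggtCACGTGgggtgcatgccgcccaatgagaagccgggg

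The Ciart window held 3 E-boxes, at bases -116, -58 and -44 counted back from the transcript start, and the Per3 window held 2 D-boxes, at -205 and -158. Searched on both strands, the E-box stood in 6 of the 33 windows (18.2%), those of Per1, Cry1, Ciart, Bhlhe41 and both of Tef, against 7.15% of all 32851 windows. The E′-box stood in 4 windows (12.1%, against 4.68% of all), those of Cry1, Cry2, Nr1d1 and Rorb. A D-box, TTATGTAA or TTACGTAA, stood in 2 (6.06%, against 1.06%), those of Per3 and Timeless. The core of the ROR element, TAGGTCA or TGGGTCA, stood in 2 (6.06%, against 6.45%), those of Arntl and Nfil3. These shares describe letters in short windows, with no test, and a window without a match says nothing of elements elsewhere in the gene.

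Of the 28 genes, 23 had at least 1 probeset that reached an intensity of 100, the submitters' minimum, in at least 2 arrays, and 50 of the 77 probesets did. The other 5 genes were too dim to be tested: Bhlhe41, a repressor, lay between 3.94 and 5.25 at both of its probesets, Timeless between 4.42 and 6.10, the CRY-directed ubiquitin ligase gene Fbxl21 between 4.25 and 4.27, Nfil3 between 14.0 and 16.9, and Nr1d1, which encodes REV-ERB alpha, between 15.4 and 30.6. These values give no order between the groups. Intensity is in the units of the authors' normalization, and probesets of different genes cannot be set against each other.

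Across the tested clock genes the fluoxetine pools were mostly lower, by modest amounts, and no single gene passed the test over all probesets. At each gene's brightest tested probeset, limma with Benjamini-Hochberg adjustment called 0 of 23 genes higher and 0 lower, against 1.31% and 0.554% of 9030 tested genes, and it called 0 of 50 probesets, against 1.72% of 16938. At an unadjusted p under 0.05, 9 of the 23 genes were lower, against 12.7% of all tested genes, and 0 were higher, against 9.37%. In 13 of 23 genes both fluoxetine pools lay below both control pools, against 32.7% of all tested genes, and in 4 both lay above, against 23.6%. The log2 difference, fluoxetine minus control, was below 0 in 17 of 23 genes, against 56.5%, with a median of -0.18 against -0.03 over all tested genes. None of the 23 genes differed by 2-fold or more, the submitters' own criterion (0 of 23, against 0.93% of all tested genes). Since the smallest exact permutation p of 2 pools against 2 is 0.333, limma's test, which borrows the spread of all probesets, is used throughout.

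**Figure D1:**
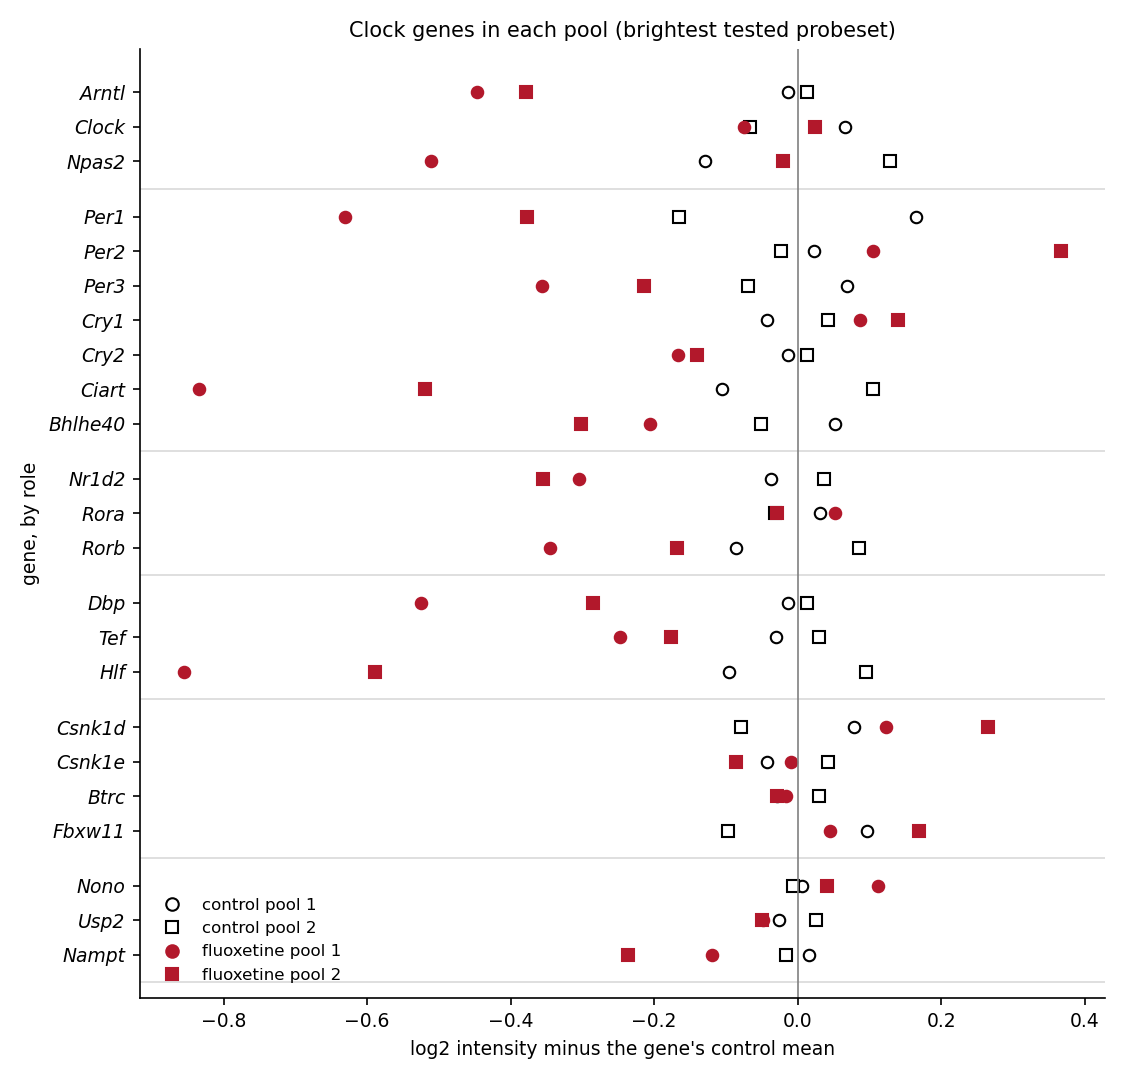
Intensity of each clock gene in each pool, as log2 minus the mean of the 2 control pools, at the gene's brightest tested probeset. Open symbols are control pools, filled symbols fluoxetine pools, circles pool 1 and squares pool 2, with genes grouped by role as in the text. The filled symbols lie to the left of both open symbols in 13 of 23 genes and to the right in 4.

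The output factors of the D-box layer were lower in both fluoxetine pools at the brightest probeset of all 3 tested members. Of all tested genes, 32.7% were so placed. Hlf, a PAR bZIP activator, read 1658 and 1893 in control and 979 and 1178 in fluoxetine pools. Both fluoxetine pools were well below both controls, and the gap between the nearest pools, 0.49 on the log2 scale, was larger than the 0.19 and 0.27 between pools of a group. The log2 difference was -0.72 ± 0.12 (SE, n = 2 pools per group), so that fluoxetine pools held 60.6% of the control level, with a limma adjusted p of 0.0709. Of all tested genes 0.520% were as low or lower. The other Hlf probeset read 509 and 594 against 316 and 342, a log2 difference of -0.74 ± 0.10 (limma adjusted p = 0.0531). Neither probeset passed, and both showed the same order of pools. Hlf at its brightest probeset did pass with a trend and robust variance (adjusted p = 0.0403) and when its probesets were averaged (0.0463), within a range of 0.0403 to 0.342 over all alternatives.

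Dbp, a PAR bZIP factor with a strong daily swing in many tissues, was at 5794 and 5899 in control pools and at 4063 and 4798 in fluoxetine pools. The groups did not overlap, although the 2 fluoxetine pools were 0.24 apart on the log2 scale and the control pools only 0.03. The log2 difference was -0.41 ± 0.10 (limma adjusted p = 0.119), and its other probeset gave -0.39 ± 0.09. The brightest Dbp probeset is of a type that can match several transcripts, and the other is not. Tef, the remaining PAR factor, read 1685 and 1756 against 1449 and 1523 at its brightest probeset, a log2 difference of -0.21 ± 0.07 (limma adjusted p = 0.181). Its 3 tested probesets were all below 0 but differed in size, and 1 of them read 297 and 298 in control pools against 207 and 179 in fluoxetine pools (-0.63 ± 0.09, limma adjusted p = 0.0583), while another had overlapping groups (-0.08 ± 0.16). The stretches printed above include an E-box ahead of Tef, whereas the windows of Dbp and Hlf held none of the elements searched for.

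Among the core activators, Arntl was lower in both fluoxetine pools and Clock lay near its control level. Arntl, whose protein BMAL1 is needed for the clock to run, was at 240 and 244 in control pools and at 177 and 186 in fluoxetine pools. Pools of a group were within 0.07 of each other on the log2 scale and the groups were 0.36 apart at their nearest pools. The log2 difference was -0.41 ± 0.07, or 75.1% of the control level, with a limma adjusted p of 0.0683, the lowest among the members at their brightest probesets. It passed when all of a gene's probesets were averaged before the fit (adjusted p = 0.0477, range over all alternatives 0.0477 to 0.276). Arntl has 1 tested probeset, so that averaging left its own value as it was and altered only the features it was fitted and adjusted with. Clock, which encodes the partner of BMAL1, read 922 and 841 in control pools and 837 and 895 in fluoxetine pools, and the groups overlapped. Its log2 difference of -0.02 had a 95% interval from -0.24 to 0.19, and its other 3 probesets lay between -0.09 and 0.13. Npas2 was at 196 and 234 against 150 and 211, with overlapping groups and a wide interval from -0.76 to 0.23.

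Of the 7 tested repressors, 5 had both fluoxetine pools below both controls and 2 had them above (32.7% and 23.6% of all tested genes). Ciart, which encodes CHRONO, a repressor that binds BMAL1, read 152 and 176 in control pools and 91.6 and 114 in fluoxetine pools, 1 of which is under the intensity minimum. The groups did not overlap, and the log2 difference was -0.68 ± 0.14, or 62.6% of the control level (limma adjusted p = 0.0905). Per1, a Period gene that responds to light, cAMP and glucocorticoids, read 243 and 193 against 140 and 167. Its pools were spread, 0.33 apart in control and 0.25 in fluoxetine on the log2 scale, and the nearest pools of the groups were only 0.21 apart. The log2 difference was -0.50 ± 0.15 (limma adjusted p = 0.155), and it ranged from -0.67 to -0.34 over the alternatives, the ends being those without 1 of the arrays. Per3, a Period gene that the clock can run without, was lower at all 3 tested probesets, by -0.29, -0.35 and -0.36 on the log2 scale, with non-overlapping groups at each. The nearest of the 3 to the threshold read 346 and 339 against 261 and 275 (limma adjusted p = 0.0838).

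Per2 and Cry1, both repressors, lay in the other direction. Per2 was at 329 and 318 in control pools and at 348 and 417 in fluoxetine pools, a log2 difference of 0.24 ± 0.11 (limma adjusted p = 0.279), which was 0.10 without fluoxetine pool 2 and 0.37 without fluoxetine pool 1. Its groups did not overlap at this probeset, but its other tested probeset, near the intensity minimum, gave -0.00 with overlapping groups. Cry1 was at 430 and 456 against 470 and 488 (0.11 ± 0.07, 95% interval from -0.07 to 0.30). Its paralog Cry2 read 1280 and 1303 against 1150 and 1172, a log2 difference of -0.15 ± 0.06 (limma adjusted p = 0.254). Bhlhe40, whose protein DEC1 competes with the activators at E-boxes, read 1337 and 1245 against 1119 and 1047 (-0.25 ± 0.08, limma adjusted p = 0.164). At their brightest probesets, the 4 tested genes with an E-box in a printed stretch went both ways. Ciart, Per1 and Tef were lower in both fluoxetine pools and Cry1 higher, against 32.7% and 23.6% of all tested genes. None of them passed the threshold, and a link to the E-box was not tested.

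In the secondary loop, Nr1d2 was lower in both fluoxetine pools and Rora near its control level. Nr1d2, which encodes REV-ERB beta, a repressor of Arntl, was at 5130 and 5402 in control pools and at 4263 and 4118 in fluoxetine pools. The groups were 0.27 apart on the log2 scale against at most 0.07 within a group. The log2 difference was -0.33 ± 0.07, or 79.6% of the control level (limma adjusted p = 0.0953), and its other tested probeset gave -0.26 ± 0.08. With a trend and robust variance Nr1d2 passed (adjusted p = 0.0441, range over all alternatives 0.0441 to 0.292). Rora, a ROR activator, read 619 and 593 against 628 and 594, and its 4 tested probesets lay between -0.10 and 0.04. Its brightest probeset had a 95% interval from -0.18 to 0.20. Rorb, which in the brain is also a marker of thalamus and cortical layer IV, gave -0.26 ± 0.10 at one probeset without overlap (230 and 259 against 192 and 217) and 0.00 ± 0.21 at the other, where the groups overlapped.

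**Figure D2:**
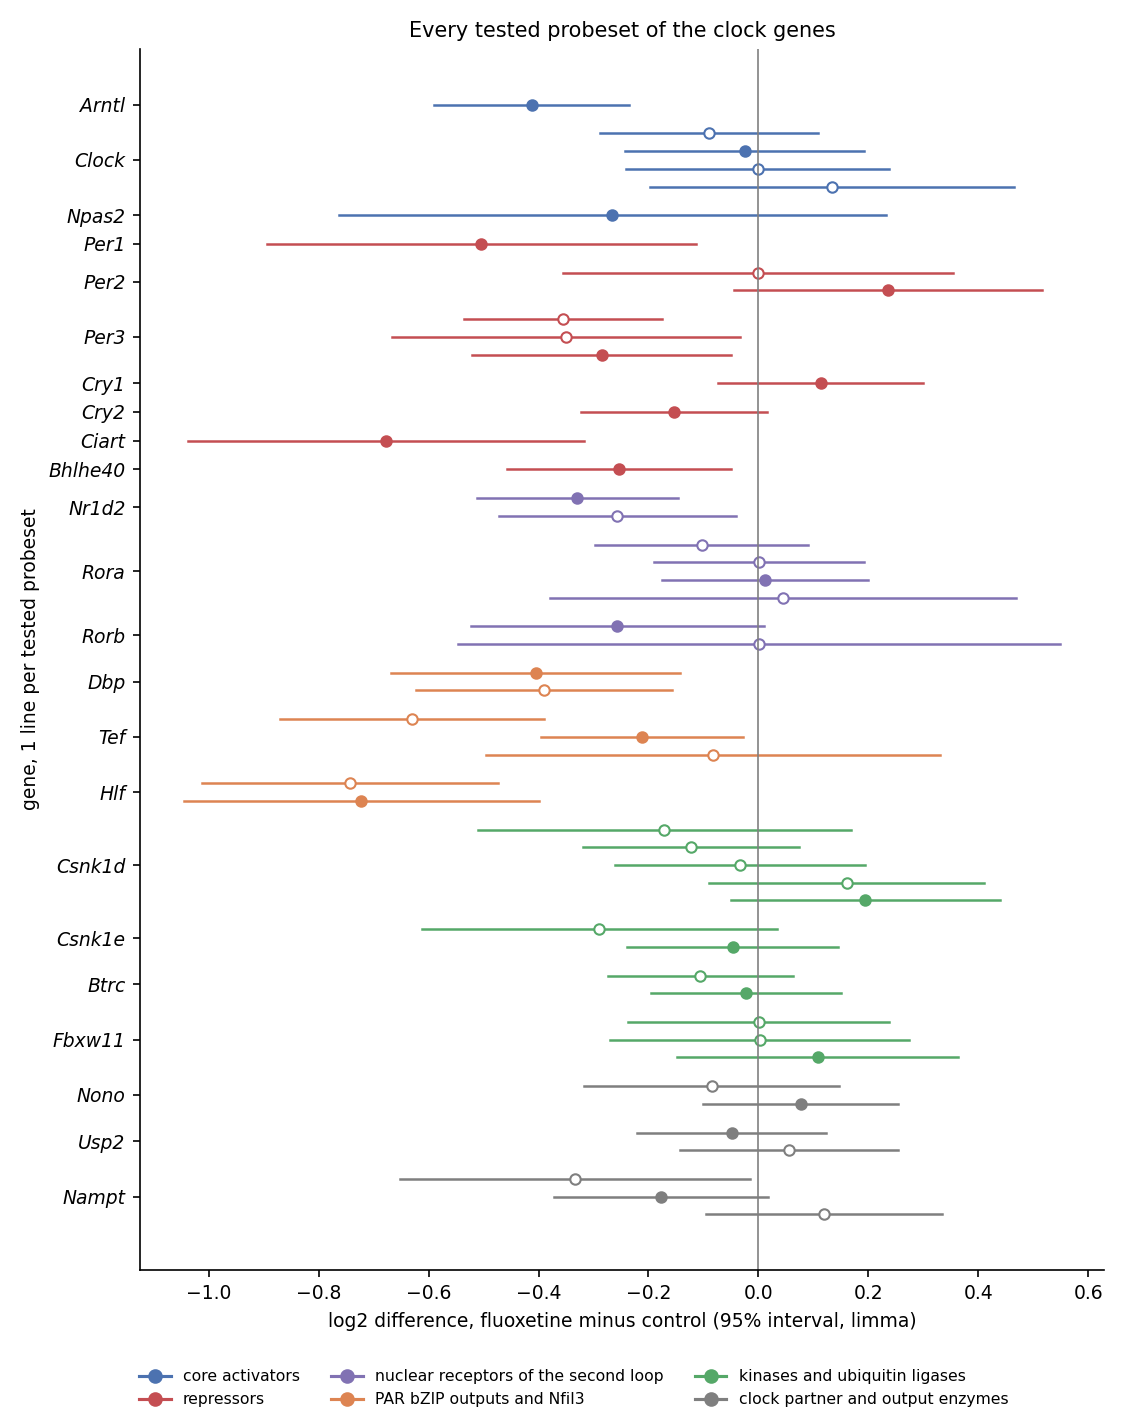
Log2 difference, fluoxetine minus control, of all 50 tested probesets with limma's 95% interval, 1 line per probeset, coloured by role. Filled points mark each gene's brightest probeset. The lines of Hlf, Dbp, Per3 and Nr1d2 lie wholly left of 0, and those of Clock, Rora, Csnk1d and Fbxw11 all cross it.

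The kinases and ubiquitin ligases that time the decay of PER proteins showed no common direction, with a median log2 difference of 0.04. Of the 4 tested genes, 0 were lower without overlap and 1 was higher, against 32.7% and 23.6% of all tested genes. Csnk1d, a casein kinase of PER, read 1826 and 1636 against 1883 and 2077 at its brightest probeset (0.19 ± 0.09), which is of a type that can match several transcripts, and its 5 tested probesets lay between -0.17 and 0.19, with 3 below 0. Csnk1e, the related kinase, read 645 and 684 against 661 and 626 (95% interval from -0.24 to 0.14), and its other probeset gave -0.29 ± 0.12. The PER-directed ligase genes Btrc and Fbxw11 gave -0.02 (95% interval from -0.20 to 0.15) and 0.11 (from -0.15 to 0.36). The Fbxw11 probeset too is of the type that can match several transcripts, and without such probesets its value was 0.0027. With 1 array left out it lay between 0.010 and 0.20.

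Among partner and output enzymes, Nono, whose protein binds PER, read 2818 and 2793 against 3033 and 2886 (0.08 ± 0.07). Its other tested probeset gave -0.09 with overlapping groups, and both are of the type that can match several transcripts. Usp2, a rhythmic deubiquitinase, read 1631 and 1691 against 1606 and 1605 (-0.05 ± 0.07). These did not overlap, but only 0.02 lay between the nearest pools, the smallest such gap among the 13 genes lower without overlap. The other Usp2 probeset gave 0.05 with overlapping groups. Nampt, the rate-limiting enzyme of NAD salvage, read 813 and 795 against 741 and 683 (-0.18 ± 0.07, limma adjusted p = 0.253). Its 3 tested probesets disagreed, at -0.33, -0.18 and 0.12. In all, 16 of the 23 genes had more than 1 tested probeset, and in 8 of them all probesets had the same sign, in 7 all below 0.

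**Figure D3:**
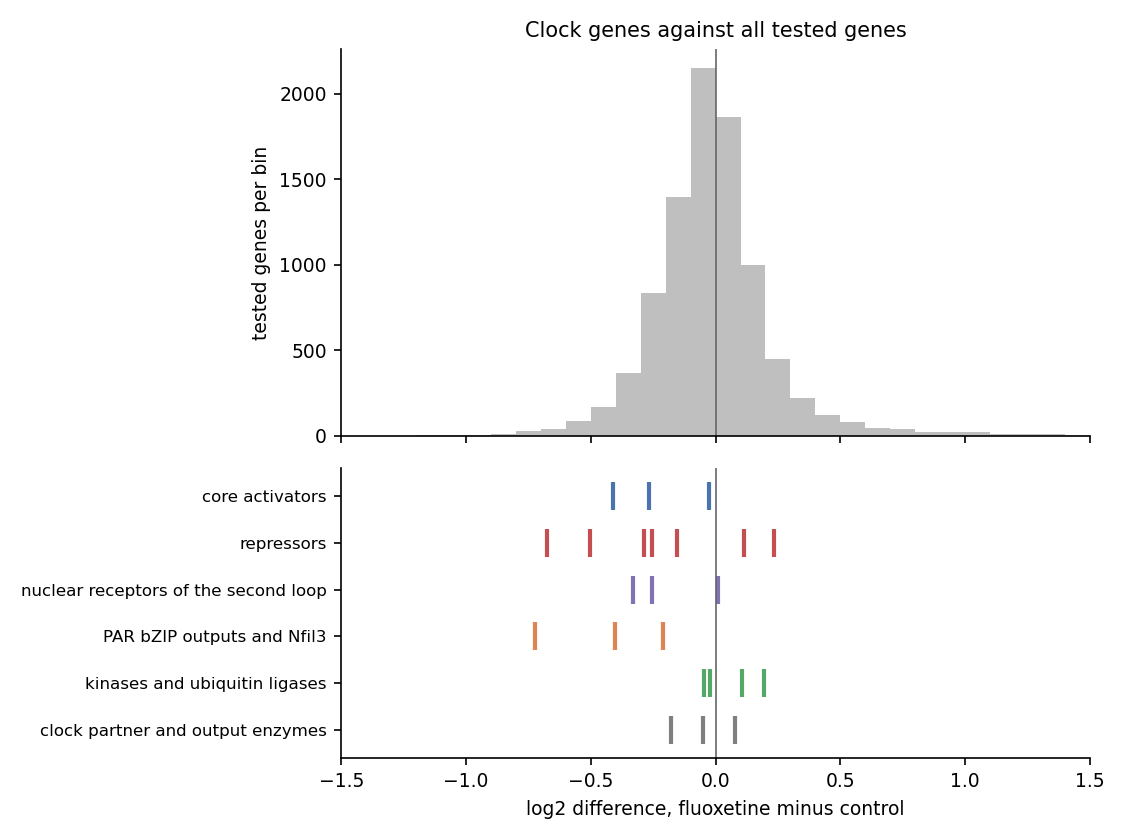
Upper panel, number of tested genes by log2 difference, fluoxetine minus control, at each gene's brightest probeset, in bins of 0.1, between -1.5 and 1.5. Lower panel, the 23 clock genes as ticks on the same axis, by role. The 3 tested output bZIP genes have a median of -0.41 and the 4 kinases and ligases a median of 0.04, against -0.03 for all genes.

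By role, the median log2 difference was -0.41 for the output bZIP factors, -0.27 for the activators, -0.26 for the nuclear receptors, -0.25 for the repressors, -0.05 for the partner enzymes and 0.04 for the kinases and ligases. These are medians of 3 to 7 genes and were not tested against each other. Within the fluoxetine group, pool 1 was below pool 2 in 15 of 23 genes (65.2%, against 45.9% of all tested genes) and in 9 of the 13 genes that were lower without overlap. Within the control group, pool 1 was below pool 2 in 13 of 23 (56.5%, against 44.6%). The median gap between control pools was 0.084 on the log2 scale for the clock genes, as for all genes (0.0842).

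Genes linked to the clock outside the 28 were read from lists of 40 regulators, 22 common rhythmic outputs, 12 suprachiasmatic signals and 18 signal inputs to the Period genes. Of the regulators, 33 were tested and limma called 0 in either direction, with 5 lower and 1 higher at an unadjusted p under 0.05, against 12.7% and 9.37% of all tested genes. In 16 of the 33 both fluoxetine pools were below both controls, against 32.7% of all tested genes, and the median was -0.07. Kmt2a, a histone methyltransferase recruited by the activators, read 668 and 634 against 489 and 425 (-0.51 ± 0.09, limma adjusted p = 0.0788). Tardbp, an RNA-binding protein gene, read 1382 and 1361 against 1028 and 985 (-0.45 ± 0.07, limma adjusted p = 0.0604). Over the alternatives its log2 difference ranged from -0.48 to -0.16. Sfpq, whose protein works with NONO, had overlapping groups (-0.29 ± 0.19).

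Of 16 tested rhythmic output genes, limma called 2 lower and 0 higher, against 0.554% and 1.31% of all tested genes. This list, like the others, was chosen with earlier results of these data known, so these shares are not an independent comparison. Tsc22d3, a glucocorticoid-induced gene that also cycles in many tissues, fell from 592 and 600 to 359 and 371 (log2 -0.71 ± 0.07, limma adjusted p = 0.0352). Mertk, a receptor kinase used in the uptake of dying cells, fell from 633 and 589 to 406 and 413 (-0.58 ± 0.07, limma adjusted p = 0.0460). Cirbp, a cold-induced RNA-binding protein gene, read 496 and 529 against 361 and 327 (-0.58 ± 0.08, limma adjusted p = 0.0583). Ppargc1a, a metabolic coactivator, was at -0.30 ± 0.11, and Noct, which encodes nocturnin, lay in the other direction (0.30 ± 0.07, limma adjusted p = 0.103). The list median was -0.03, as over all tested genes.

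Of the suprachiasmatic signals only 4 reached the minimum, and Avp, Vipr2, Prok2, Rgs16, Six6, Lhx1 and Adcyap1 did not. Prokr2, the receptor of prokineticin 2, rose from 217 and 172 to 400 and 449 (log2 1.13 ± 0.14, limma adjusted p = 0.0443). Grp, gastrin-releasing peptide, read 1578 and 1855 against 2940 and 3468 (0.90 ± 0.13, limma adjusted p = 0.0536), and Adcyap1r1, a receptor of the peptide PACAP, gave -0.30 ± 0.08. Of 15 tested inputs to the Period genes, Tsc22d3 again was the 1 gene that passed. At an unadjusted limma p under 0.05, 4 of the 15 were lower and 3 higher, against 12.7% and 9.37% of all tested genes. Without overlap 4 were lower and 3 higher, against 32.7% and 23.6%, and the list median was 0.02. Fos read 268 and 230 against 483 and 1039 (1.51 ± 0.37, limma adjusted p = 0.117), Arc 289 and 233 against 365 and 599 (0.85 ± 0.26) and Crem, a cAMP-responsive factor, 148 and 111 against 194 and 179 (0.54 ± 0.15). Without fluoxetine pool 2 the log2 difference was 0.96 for Fos and 0.49 for Arc, and without control pool 2 that of Crem was 0.34. The other inputs lower without overlap were Zbtb16 (-0.48 ± 0.08), Crtc1 (-0.36 ± 0.09) and Nr3c1 (-0.32 ± 0.07), and none of them passed. Per1, a target of such inputs, lay below control in both fluoxetine pools, and a link to any of them was not tested. The calls of Tsc22d3, Mertk and Prokr2 did not hold with any 1 array left out (limma adjusted p 0.134 to 0.188), nor with the replicate block (0.101 to 0.115). In all, limma called 0 probesets with any 1 array left out (2657 to 3515 at an unadjusted p under 0.05) and 9 with the block.

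The tissue label was checked against marker lists: 8 of 10 dentate granule cell genes, 8 of 10 pyramidal cell genes and 9 of 9 interneuron genes were tested. Of 11 genes of the thalamus and layer 4 cortex, 6 were tested too, and Tcf7l2, Lef1, Rspo1, Scnn1a and Whrn were under the minimum. Of those 6, Slc17a6 (-0.48), Cux2 (-0.40) and Ntng1 (-0.20) were lower without overlap, Prkcd (0.56) and Calb2 (0.34) higher without overlap, and limma called 0. For this and the lists below, 32.7% of all tested genes were lower and 23.6% higher without overlap. Of 10 choroid plexus genes only Ttr and Kl were tested. Ttr, the main secreted protein of the choroid plexus, read 37856 and 2002 in control pools and 51101 and 4429 in fluoxetine pools, so that pool 1 of each group stood far above pool 2. Summed marker levels of several cell types also differed between the groups, higher in fluoxetine pools for some and lower for others. The summed intensity of 9 tested microglia genes was 4549 and 4455 in control pools and 7292 and 7106 in fluoxetine pools, with 4 called higher. That of 11 astrocyte genes was 69552 and 72026 against 84011 and 85535, with 3 higher, and that of 7 endothelial and mural genes 3904 and 3766 against 4992 and 4815, with 2 higher. That of 8 dentate genes was 19523 and 18557 against 16382 and 17554, with 1 called lower, Dsp. Over all tested genes limma called 1.31% higher and 0.554% lower. The sum of 8 oligodendrocyte genes was 60718 and 59952 against 57819 and 57782.5, and that of 9 interneuron genes 28943 and 29799 against 27658 and 27761. For 8 pyramidal cell genes it was 12006 and 10600.5 against 10527 and 10030.5. Limma called 0 of these oligodendrocyte, interneuron and pyramidal cell genes. The interneuron list had 5 genes above 0 and 4 below, with a median of 0.0008, and 3 higher and 4 lower without overlap. In the oligodendrocyte list 2 were above 0 and 6 below, with 2 higher and 3 lower without overlap. Among the pyramidal cell genes 2 were above 0 and 6 below, with 1 higher and 3 lower without overlap. Each sum is weighted to its brightest genes. The dentate list went both ways, with 4 genes above 0 and 4 below and a median of 0.085. C1ql2 (1.11) and Npnt (0.72) were higher without overlap and Dsp (-1.79), Calb1 (-0.45) and Stxbp6 (-0.35) lower. The astrocyte list held 8 genes above 0 and 3 below, with Fgfr3 (-0.44) and Slc1a3 (-0.06) lower without overlap. In the endothelial and mural list 6 genes were above 0, and Acta2 (-0.27) was lower without overlap. The 9 microglia genes were all above 0. All 18 hybridisation spike-in probesets were also higher in both fluoxetine arrays, by a median log2 of 0.36. Their part in the clock gene differences was not tested, and in whole tissue a smaller share of cells that express a gene and less RNA per cell cannot be told apart.

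**Figure D4:**
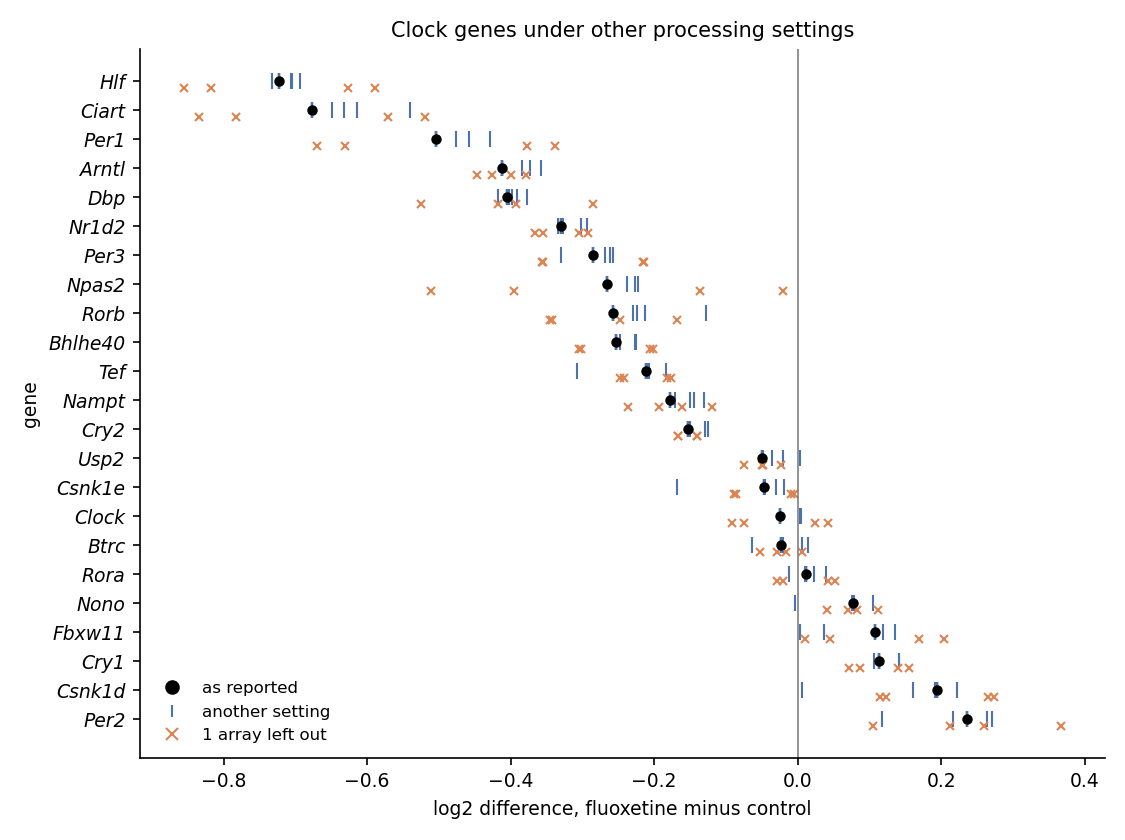
Log2 difference, fluoxetine minus control, of each clock gene as reported (black), under other processing settings (blue ticks) and with 1 array left out (orange crosses), ordered by the reported value. In 18 of 23 genes every alternative kept the sign, 14 of them below 0 and 4 above, and the leave-out values of Npas2 spread from -0.51 to -0.02. Settings that alter only the filter or the test leave the log2 difference as it was, so they could not change a sign.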

How the data were processed

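The authors' deposited values are intensities on a linear scale, 1 for each probeset on each array, which the series' design text says came from ArrayAssist and its GCRMA method. That method estimates background from each probe's base composition, which can compress the differences of dim probesets. Software versions were not given in the sources used here. Values were taken to log2 with no pseudocount. After 64 array controls were set aside, probesets reaching 100 in at least 2 of 4 arrays were kept (16938). Genes were named from the platform annotation where a probeset had 1 symbol, and the brightest tested probeset stands for its gene.

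The comparison used limma 3.58.1 (lmFit and eBayes, R 4.3.3) with group as the only term, two-sided p-values, Benjamini-Hochberg adjustment across the whole table, and 0.05 as threshold. Between 16651 and 16905 probesets per array reached 100, and the number of arrays limits the precision. The procedure was also run on simulated data with known differences. How often it recovered differences as small as those of the clock genes is not given here. A gene that was not called therefore cannot be read as unchanged. The members, lists, tests and alternatives were chosen with earlier results of these data known. All members are named, and of the clock-linked lists outside them the called genes and up to 3 others with the largest difference. Of the signal inputs, Zbtb16, Crtc1 and Nr3c1 are named as well. Alternatives were other filters, normalizations, variance settings, probeset rules, a replicate block and leaving out each array.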

Additional observations from a re-analysis of the deposited data

How the results depend on the processing

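The count of member genes called by limma, 0, stayed at 0 under 15 of 17 alternatives. Several of these settings could return few or no members. Limma called 0 of all probesets with no intensity filter and with an ordinary t statistic, 16 with a minimum of 50 and 9 with the replicate block. The member count became 2 lower with trend and robust eBayes (Nr1d2 and Hlf), where 532 of all tested probesets were called. It also became 2 lower with the gene mean of tested probesets (Arntl and Hlf), where 299 of all tested genes were called. Member probesets called lower went from 0 to 1 with at least 100 in all 4 arrays (Hlf) and with quantile normalization (Tef), to 2 with median centring and with a pseudocount of 32 (Hlf and Tef), and to 4 with trend and robust eBayes (both of Hlf, and 1 each of Tef and Nr1d2). Of all tested probesets, 291 were called as reported. The whole count was 258 with at least 100 in all 4 arrays, 388 with quantile normalization, 430 with median centring and 345 with the pseudocount. With no intensity filter the median over member genes moved from -0.18 to -0.10, as the 5 dim genes entered. The 13 genes with both fluoxetine pools below both controls became 12 with quantile normalization and with median centring, where 27.4% and 26.5% of all tested genes were so placed. With 1 array left out, 0 member genes passed in each case, and the lone pool is assumed to vary like the others.

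Signs changed in 5 genes near 0. Clock turned to 0.0032 with quantile normalization, 0.0030 with median centring and 0.0041 with the gene mean, and ranged from -0.092 to 0.042 with 1 array left out. Btrc turned to 0.014 with quantile normalization and 0.0055 with median centring, and ranged from -0.052 to 0.0068 with 1 array left out. With the gene mean Rora turned to -0.011, Nono to -0.0042 and Usp2 to 0.0029, and Rora ranged from -0.029 to 0.052 with 1 array left out.

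Calls outside the members moved more, and the cause was not tested. The 2 rhythmic outputs, 1 suprachiasmatic signal and 1 signal input called became 0 each with no filter, a minimum of 50, an ordinary t statistic, the replicate block and each array left out (0 to 0), and the rhythmic outputs also became 0 under the 2-fold rule. The suprachiasmatic signals became 2, with Grp, under the minimum in all 4 arrays, both normalizations, the pseudocount, trend and robust eBayes and the gene mean. The signal inputs became 2 with trend and robust eBayes. The clock-linked regulators went from 0 to 1 with the pseudocount and with trend and robust eBayes (Tardbp) and with the gene mean (Kmt2a).

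With the replicate block (pool number), 0 member genes and 0 probesets were called, the lowest adjusted p of a member gene being 0.101, and 9 rather than 291 of all probesets passed. The deviations of same-numbered pools correlated at 0.139 over tested probesets, and the labels do not say that a number marks a shared batch. An ordinary t statistic called 0 probesets in all, with 5 member genes lower at an unadjusted p under 0.05.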

Other observations

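Some clock probesets that never reached the minimum are given here as values only, with no order between the groups. A further Per3 probeset read 66.4 and 63.5 in control pools and 30.5 and 34.0 in fluoxetine pools. Another overlapped (78.7 and 75.9 against 52.9 and 83.7), and the remaining dim one read 32.5 and 32.3 against 32.9 and 34.6. The single Nr1d1 probeset read 30.6 and 19.3 against 15.4 and 19.3. A dim Rora probeset read 49.6 and 45.5 against 39.3 and 39.4. The single Nfil3 probeset, which reports the repressor that opposes DBP, TEF and HLF, read 14.0 and 14.0 against 16.9 and 14.4. No fold is given for any of these, since both groups lie under the minimum.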
